A study of Arabidopsis thaliana with 9 samples.

Results

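The arabinogalactan proteins (AGP) and the fasciclin-like arabinogalactan proteins (FLA) were followed in imbibed seeds of *Arabidopsis thaliana*. Members were all genes whose name in the authors' deposited table of differential expression is AGP or FLA followed by a number, which gave 51 of 33557 listed genes, 30 of them AGP and 21 FLA. The genotypes were *nac25* (KO2) and *nac1L* (KO1), described as loss-of-function or null mutants of one NAC transcription factor each, and the Col-0 wild type (WT). Each had 3 biological replicates of 20 mg of seeds, collected 12 h after imbibition on agarose plates, and RNA came from whole seeds. The sources used here do not name the alleles, the number of independent lines or the age of the seed lots. With a single collection time, a direct effect of a mutation and slower germination cannot be told apart.

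AGPs are secreted proteins whose prolines are hydroxylated and then carry large branched arabinogalactan chains. Many are held at the outer face of the plasma membrane by a glycosylphosphatidylinositol (GPI) anchor, where they contact the cell wall. Classical AGPs have a proline-rich backbone, lysine-rich AGPs interrupt it with a short basic stretch, and AG peptides are very short versions of the same design. FLAs add fasciclin domains, which are known for adhesion between proteins, to the glycosylated stretches, and AGP8 is now called FLA8. In a germinating seed the embryo must elongate and the endosperm around it must weaken, and both processes remodel the wall in which these proteins lie.

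The table lists comparisons between genotypes and no value per library, so levels, depth and the spread between replicates were unknown. Folds are log2 values of *nac25* over WT, of *nac1L* over WT and of *nac25* over *nac1L*, and a gene is called higher or lower where the authors' q-value, adjusted over all tests of the 3 comparisons, is at or below 0.05. The smallest q in the authors' deposited table is 0.000463, so genes at this value are not ranked among themselves. The 3 comparisons share their samples, and values are therefore set side by side without a measure of likeness. The targeted genes had too few reads for a test in the authors' deposited table, with log2 folds of -3.97 for NAC25 in *nac25* and -4.61 for NAC1L, taken as AT3G12977, in *nac1L*. Each was also listed lower in the other mutant, NAC25 with -2.66 in *nac1L* and NAC1L with -1.89 in *nac25*, again without a test, in the authors' deposited table. Seed identity was checked on 8 storage genes, of which the cruciferin genes CRA1 and CRC, the albumin gene AT2S3 and the oleosin gene OLEO1 were marked in the authors' deposited table as having too many reads for a test in both mutants against WT. The 4 storage genes with a test moved in both directions. The albumin gene 2S1 was called lower in *nac25* (log2 -1.82) and in *nac1L* (-2.09), and 2S2 had folds of -0.22 in *nac25* (q = 0.167) and -0.71 in *nac1L*, the second called lower, in the authors' deposited table. The oleosin gene OLEO2 was called higher in *nac25* (log2 0.69) and in *nac1L* (0.40), and the cruciferin gene CRB higher in *nac25* (0.53), in the authors' deposited table. Of the other marker lists, both endosperm genes, EXPA2 and MAN7, were called lower in *nac25* (log2 -4.88 and -2.06) and in *nac1L* (-4.21 and -1.73) in the authors' deposited table. EXPA2 also served as a check of the genotype labels, so it is not an independent endosperm marker, and MAN7 is the only other gene of that list. Of 3 embryo epidermis genes, 2 were called lower in each mutant, with folds between -3.25 and -0.11 in *nac25* and between -1.95 and -0.11 in *nac1L* in the authors' deposited table, where 32.8% of all tested genes were called lower in *nac25* and 18.9% in *nac1L*. One of these, PDF1, had a log2 fold of -0.50 in *nac25*, a call lost after subtracting the median fold of all tested genes, and was higher in *nac25* than in *nac1L* (0.37, q = 0.0388) in the authors' deposited table. Their part in the results on AGP and FLA genes was not tested. In whole seeds, fewer cells of a type and less RNA per cell cannot be told apart.

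Of the 51 members, 35 had a test in at least 1 comparison and 26 in all 3. At least 1 call was made for 20 members, and 15 were tested and never called. Among the 16 with no test, AGP3, AGP23, AGP30, AGP40, FLA6, FLA13 and FLA21 are listed with a fold of exactly 0 in all 3 comparisons. AGP30, which has been linked to root regeneration and the timing of germination, thus had no fold to test here, nor had AGP23 and AGP40, known from pollen. For others, folds of infinity, or read as minus infinity, imply a level of 0, although levels themselves are not given. These are AGP22, FLA3 and FLA20 in *nac1L*, FLA12, known from secondary walls of stems, in *nac25* and *nac1L*, and AGP41 in *nac1L* and WT. The last 4 untested members, AGP25, FLA5, FLA14 and FLA15, had finite folds and too few reads. A member could also pass the read minimum through the genotype in which it is higher. AGP5, AGP13, AGP18, AGP21, FLA1, FLA2 and FLA7 were tested in both mutants against WT but not between the mutants. All had negative folds in both mutants, so they passed through WT. In the same way AGP14 passed through *nac1L* and FLA11 through *nac25*. The shares and medians below include these genes, so they describe the tested members and not the families as such.

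In *nac25*, 12 of 22 tested AGP genes were called lower and 1 higher, and 3 of 12 tested FLA genes were called lower and 1 higher; whether the families differ was not tested. Of 34 members tested against WT, 15 were called lower, which is 44.1%, and 2 higher. Over all 18155 tested genes of this comparison, 32.8% were called lower and 6.25% higher. At least 2-fold changes with a call were found for 12 members, or 35.3%, all of them lower, against 11.1% of all tested genes lower and 0.683% higher. The median log2 fold of the tested members was -0.86, and that of all tested genes -0.27. AGP genes had a median of -1.10 over 22 tested, and FLA genes one of -0.26 over 12 tested. Folds were also taken relative to the median of all tested genes (centring), with p-values recomputed. Then 11 members were lower, 9 of them AGP genes, and 2 higher, whereas the calls over all tested genes came to 2681 lower (14.8%) and 2861 higher (15.8%). Relative to that shift the median was -0.83 for AGP genes and 0.01 for FLA genes, so the sign of the FLA median depended on the scaling.

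In *nac1L* the pattern had the same direction with fewer calls. Of 34 members tested against WT, 10 were called lower, which is 29.4%, and 1 higher. Over all 18233 tested genes, 18.9% were called lower and 9.62% higher. The members lower by at least 2-fold numbered 6, or 17.6%, against 6.2% of all tested genes, and no member was higher by that size, against 0.861%. The median of the tested members was -0.41, and that of all tested genes -0.07. AGP genes had a median of -0.56 over 23 tested, and FLA genes one of -0.40 over 11 tested. After centring, 7 members were lower and 2 higher, against 2775 (15.2%) and 2269 (12.4%) of all tested genes. Relative to the shift the median was -0.50 for AGP genes and -0.33 for FLA genes, so that here both kept their sign. Both medians include the members named above that passed the read minimum through WT, all with negative folds.

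**Figure D1:**
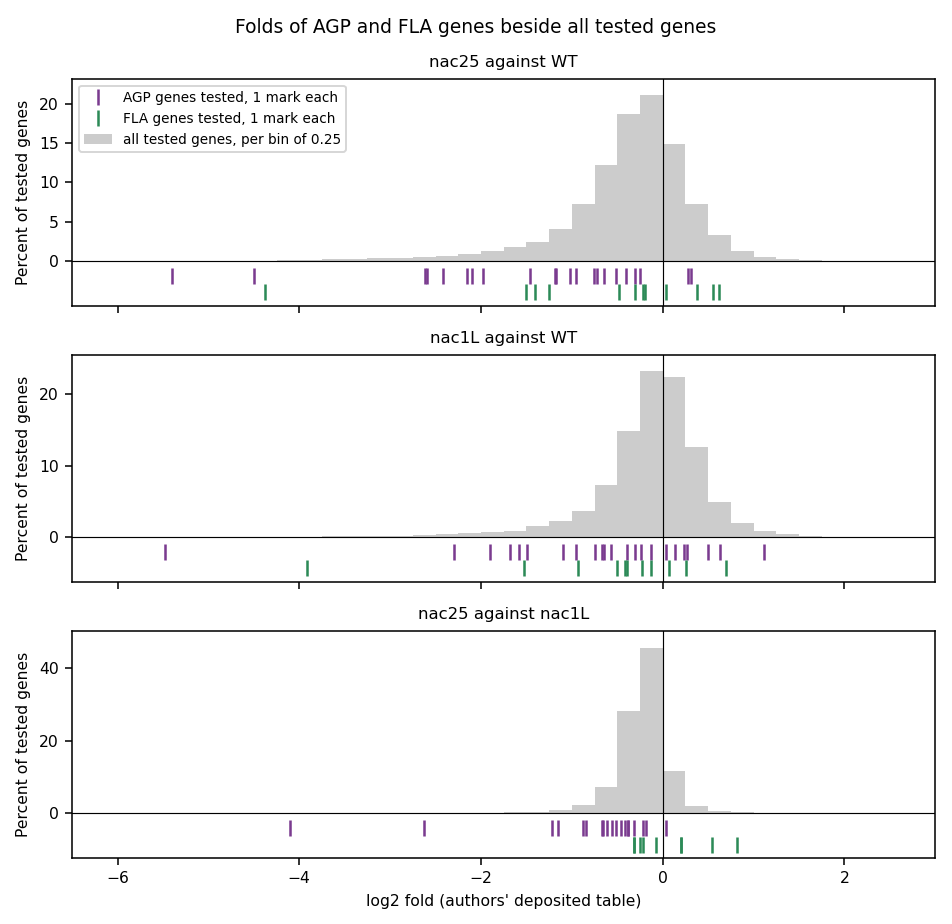
Percent of all tested genes (grey bars, bins of 0.25) by log2 fold, with 1 mark below the axis for each tested AGP or FLA gene, in *nac25* against WT, *nac1L* against WT and *nac25* against *nac1L*. AGP marks lie mostly left of the bulk of all genes in the top panel, where their median is -1.10 against -0.27, while FLA marks have a median of -0.26.

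Among the 13 classical AGP genes, 11 were tested against WT. In *nac25* 6 were called lower (54.5%) and 1 higher (9.09%), against 32.8% and 6.25% of all tested genes. In *nac1L* 3 were called lower (27.3%) and 1 higher (9.09%), against 18.9% and 9.62% of all tested genes. AGP9 was 4.44-fold lower in *nac25* (log2 -2.15, q = 0.000463) and 2.82-fold lower in *nac1L* (log2 -1.50, q = 0.000463) in the authors' deposited table. AGP1 was 3.93-fold lower in *nac25* (log2 -1.97) and 2.13-fold lower in *nac1L* (log2 -1.09) in the same authors' deposited table, both at the smallest q. Both genes thus had their larger reduction in *nac25*, and the direct comparison tested that difference (below).

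AGP4, known as JAGGER from its role in the ovule in blocking the entry of further pollen tubes, had log2 folds of -0.95 in *nac25* (q = 0.00625) and -0.74 in *nac1L* (q = 0.0282) in the authors' deposited table. Both calls were lost after centring, with folds of -0.69 in *nac25* and -0.68 in *nac1L* relative to the shift. AGP26 and AGP27 were called lower in *nac25*, with log2 folds of -0.76 (q = 0.000463) and -1.17 (q = 0.00729) in the authors' deposited table. In *nac1L* the authors' deposited table gives -0.30 for AGP26 (q = 0.134) and -0.56 for AGP27 (q = 0.189), which did not pass. AGP7 was called lower in *nac25* (log2 -0.52, q = 0.00124) and had a fold of 0.04 in *nac1L* (q = 0.857) in the authors' deposited table. The *nac25* calls of AGP7 and AGP27 were lost after centring, while that of AGP26 was kept. Between the mutants AGP27 did not pass (log2 -0.61, q = 0.19) in the authors' deposited table, and AGP7 and AGP26 did.

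AGP10 was the 1 AGP gene called higher in either mutant. The authors' deposited table gives log2 folds of 0.31 in *nac25* (q = 0.034) and 0.63 in *nac1L* (q = 0.000463), which is 1.24-fold and 1.54-fold. It therefore went the opposite way to AGP1 and AGP9 in both mutants.

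The other tested classical AGP genes had no call against WT. AGP6 and AGP11, a closely related pair known for pollen development, had log2 folds of 0.28 and -0.24 in *nac25* and of 0.24 and 0.13 in *nac1L* in the authors' deposited table. From each fold and its p-value an approximate 95% interval can be derived, which for AGP6 ran from -0.27 to 0.82 in *nac25* and from -0.29 to 0.77 in *nac1L*. Both intervals of AGP6 thus reached further above 0 than below it and lay within 1 log2 unit, or 2-fold, of no change. AGP5 had folds of -0.72 in *nac25* and -2.29 in *nac1L* (q = 0.553 and 0.18) in the authors' deposited table, with an interval in *nac1L* from -4.82 to 0.24. AGP2 had folds of -0.41 in *nac25* (q = 0.27) and 0.27 in *nac1L* (q = 0.459) in the authors' deposited table.

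AG peptide genes held the largest called reduction of any AGP gene and were called in 1 direction only. Of 12 genes, 7 were tested in *nac25*, where 5 (71.4%) were called lower, each by at least 2-fold. In *nac1L* 8 were tested, and 3 (37.5%) were lower. Over all tested genes, 32.8% were called lower in *nac25*, 11.1% by at least 2-fold, and 18.9% in *nac1L*. The median was -2.42 in *nac25* and -0.66 in *nac1L* over the tested genes. These sets differ, since AGP14 (log2 1.12 in *nac1L*) was not tested in *nac25* against WT. Both medians include AGP13 and AGP21, which passed the read minimum through WT and were not called. AGP15 was 5.35-fold lower in *nac25* (log2 -2.42) and 2.99-fold lower in *nac1L* (log2 -1.58), both at q = 0.000463 in the authors' deposited table. AGP20 was 2.28-fold lower in *nac25* (log2 -1.19, q = 0.000463) and 1.59-fold lower in *nac1L* (log2 -0.67, q = 0.0303) in the authors' deposited table, the *nac1L* call being lost after centring. AGP16 was 2.03-fold lower in *nac25* (log2 -1.02, q = 0.000463) and 1.56-fold lower in *nac1L* (log2 -0.64, q = 0.000866) in the authors' deposited table. These 3 peptide genes were called lower in both mutants.

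AGP12 and AGP24 were called lower in *nac25* alone among the comparisons with WT. AGP12 was 22.5-fold lower in *nac25* (log2 -4.49, q = 0.00829) and had a fold of -0.39 in *nac1L* (q = 0.356) in the authors' deposited table. Its p-value in *nac25* was 0.0014, which with so large a fold implies a wide interval, from -7.25 to -1.74. AGP24 was 2.76-fold lower in *nac25* (log2 -1.46, q = 0.000866) and had a fold of -0.24 in *nac1L* (q = 0.582) in the authors' deposited table. The direct comparison called both genes lower in *nac25* than in *nac1L*.

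Several AG peptide genes showed large folds that did not pass. AGP13 had the lowest folds of any tested member, -5.40 in *nac25* (q = 0.305) and -5.48 in *nac1L* (q = 0.316) in the authors' deposited table. Its implied interval in *nac25* ran from -12.9 to 2.13, so that neither a strong fall nor a rise could be told from these libraries. AGP21, known from root hair patterning, had folds of -2.62 in *nac25* (q = 0.409) and -0.96 in *nac1L* (q = 0.539) in the authors' deposited table. AGP14 had a fold of 1.12 in *nac1L* (q = 0.345) in the authors' deposited table and too few reads for a test in *nac25*.

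Lysine-rich AGP genes were all tested and none was called against WT by the authors' Cuffdiff comparison, although at an unadjusted p below 0.05 there were 2 lower in *nac25* and 1 in *nac1L*. AGP18, which acts in female gametophyte formation, had log2 folds of -2.60 in *nac25* (q = 0.0894) and -1.90 in *nac1L* (q = 0.0643) in the authors' deposited table. AGP17, identified through resistance to *Agrobacterium* transformation, had folds of -0.31 in *nac25* and -0.13 in *nac1L* (q = 0.279 and 0.67) in the authors' deposited table. AGP19, whose loss reduces plant growth, had a fold of -0.64 in *nac25* (q = 0.0838) and of 0.50 in *nac1L* (q = 0.177) in the authors' deposited table. The difference between the mutants passed for AGP19 even though neither mutant passed against WT.

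AGP31 is a non-classical AGP with a histidine stretch and a carboxy-terminal domain, known from vascular tissue and for binding pectin. It was 4.29-fold lower in *nac25* (log2 -2.10) and 3.21-fold lower in *nac1L* (log2 -1.68), both at q = 0.000463 in the authors' deposited table. In the direct comparison its fold was -0.42 (q = 0.216) in the authors' deposited table, with an implied interval from -0.92 to 0.08. AGP31 was thus among the few members lower by at least 2-fold in both mutants, beside AGP1, AGP9, AGP15, FLA1 and FLA2.

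**Figure D2:**
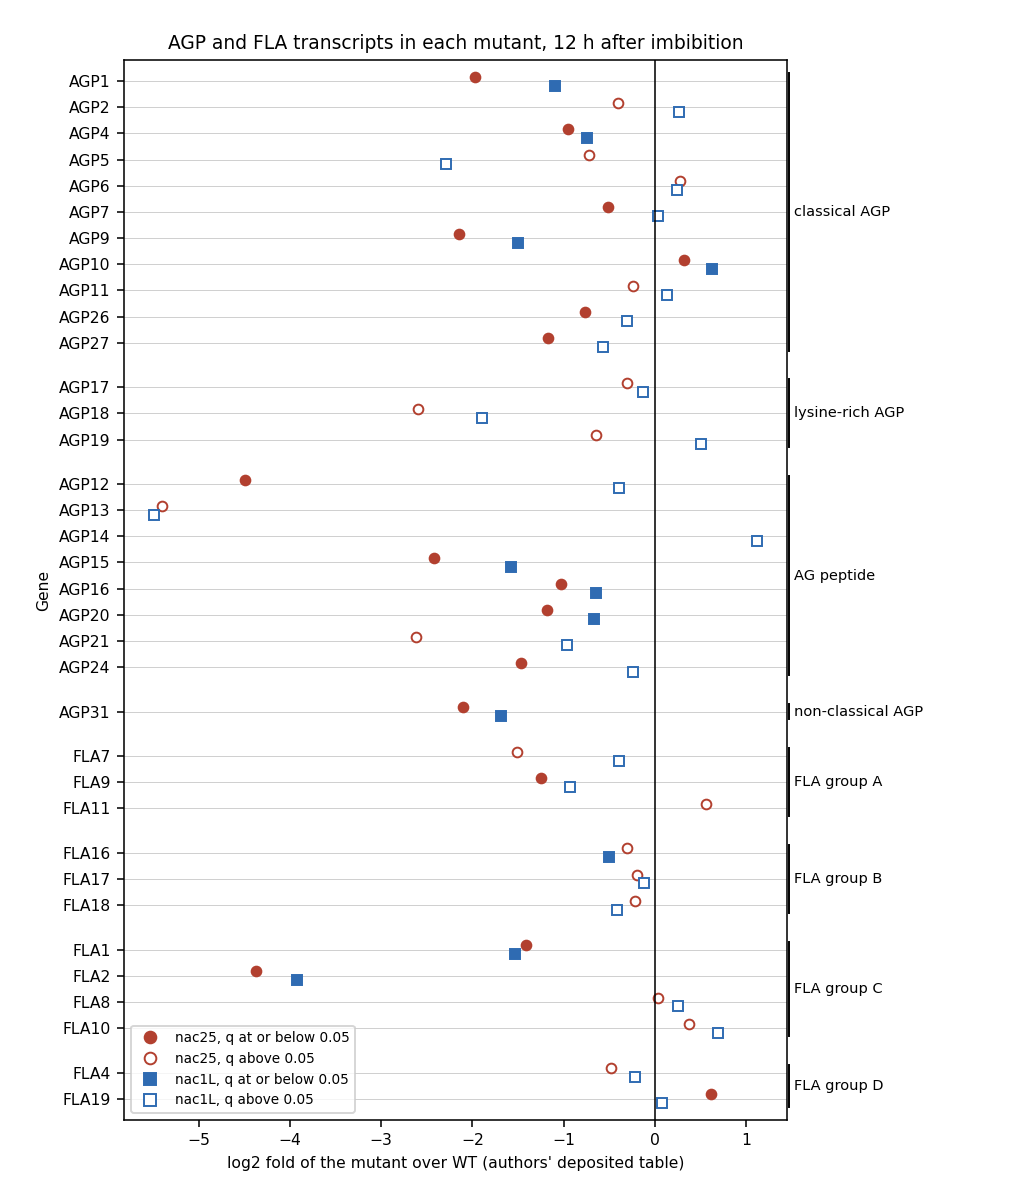
Log2 fold of *nac25* over WT (circles) and of *nac1L* over WT (squares) for each AGP or FLA gene with a test, grouped by subclass, filled where q is at or below 0.05. FLA2 and AGP12 have the lowest filled points, at -4.37 and -4.49 in *nac25*, and AGP10 and FLA19 are the genes with filled points right of 0.

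FLA genes gave 3 lower calls (25%) and 1 higher call (8.33%) among 12 tested in *nac25*, against 32.8% and 6.25% of all tested genes. In *nac1L* 3 of 11 tested were called lower (27.3%) and 0 higher, against 18.9% and 9.62% of all tested genes. FLA2 stood apart from the other FLA genes in both mutants. It was 20.7-fold lower in *nac25* (log2 -4.37) and 15.1-fold lower in *nac1L* (log2 -3.92), both at q = 0.000463 in the authors' deposited table. FLA1, linked to shoot regeneration and early root development, was 2.66-fold lower in *nac25* (log2 -1.41, q = 0.00599) and 2.88-fold lower in *nac1L* (log2 -1.53, q = 0.00409) in the authors' deposited table. Both belong to the group C of FLA genes, yet its other tested members did not follow. FLA8 had folds of 0.04 in *nac25* (q = 0.854) and 0.26 in *nac1L* (q = 0.11), and FLA10 of 0.38 (q = 0.485) and 0.69 (q = 0.167), in the authors' deposited table. FLA8 was called higher in *nac1L* once folds were centred, at 0.32 relative to the shift. FLA1 and FLA2 had too few reads for the direct comparison of the mutants, so they passed the read minimum against WT through WT.

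The remaining FLA groups had few calls. FLA9 of group A was 2.37-fold lower in *nac25* (log2 -1.25, q = 0.0114), and its fold in *nac1L* was -0.93 (q = 0.0555), in the authors' deposited table. The *nac25* call was lost after centring, at -0.98 relative to the shift. FLA9 lies next to the cruciferin gene CRB on the opposite strand, and CRB had folds of 0.53 in *nac25* (q = 0.00949) and -0.15 in *nac1L* (q = 0.536) in the authors' deposited table. The gene on its other side, PHB2 on the same strand, was called lower in *nac25* (log2 -0.88) and in *nac1L* (-0.49) in the authors' deposited table. A part of either neighbour in the FLA9 values was not tested. FLA7 had a fold of -1.51 in *nac25* (q = 0.0508) in the authors' deposited table, just outside the threshold, and was called when p-values were adjusted within that comparison alone. FLA11, known from secondary walls, was so imprecise in *nac25* (log2 0.56, q = 0.879 in the authors' deposited table) that its implied interval ran from -3.74 to 4.85.

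In group B, FLA16 was called lower in *nac1L* (log2 -0.50, q = 0.0467), while its fold in *nac25* was -0.30 (q = 0.299) in the authors' deposited table. This q was the highest of any call among the members, and the call was lost after centring. FLA17 and FLA18 had folds of -0.20 and -0.22 in *nac25*, and of -0.12 and -0.42 in *nac1L*, in the authors' deposited table, none of which passed. In group D, FLA19 was 1.54-fold higher in *nac25* (log2 0.62, q = 0.00729) and had a fold of 0.07 in *nac1L* (q = 0.792) in the authors' deposited table. FLA4, also named SOS5 and known for salt tolerance of roots and for the adherence of seed coat mucilage, had folds of -0.48 in *nac25* (q = 0.126) and -0.22 in *nac1L* (q = 0.48) in the authors' deposited table. FLA4 thus gave no call. Its implied interval ran from -0.944 to -0.008 in *nac25*, just below 0, and from -0.66 to 0.21 in *nac1L*.

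Compared directly, *nac25* had less AGP transcript than *nac1L* for 10 genes, and FLA19 was the 1 member that was higher. Of 28 members tested, 35.7% were lower and 3.57% higher, against 11.7% and 0.609% of 17743 tested genes. All 10 lower calls were AGP genes, among 19 tested, and none of 9 tested FLA genes was called lower (0 at an unadjusted p below 0.05 in the authors' Cuffdiff comparison). FLA1, FLA2 and FLA7, the tested FLA genes with the lowest folds in *nac25* against WT, had too few reads here. The FLA values of this comparison therefore leave them out. Lower by at least 2-fold were 3 members, or 10.7%, against 0.941% of all tested genes, and no member was higher by that size, against 0.0733%. The median log2 fold was -0.56 over the tested AGP genes, -0.08 over the tested FLA genes and -0.20 over all tested genes. After centring on that shift, 6 members were lower and 1 higher, against 276 (1.56%) and 482 (2.72%) of all tested genes. The median was then -0.36 for AGP genes and 0.13 for FLA genes, the FLA median thus changing sign.

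The largest called differences lay in AG peptides and a lysine-rich AGP. Relative to *nac1L*, AGP12 was 17.2-fold lower in *nac25* (log2 -4.10, q = 0.00829) in the authors' deposited table. AGP24 was 2.33-fold lower (log2 -1.22, q = 0.00547) and AGP19 2.22-fold lower (log2 -1.15, q = 0.000866) in *nac25* in the authors' deposited table. AGP2 had a direct log2 fold of -0.67 (q = 0.03) in the authors' deposited table. AGP19, AGP2 and AGP7 had folds of opposite sign against WT in the mutants, and AGP19 and AGP2 were not called against WT in either mutant.

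AGP genes that were lower in both mutants were also partly lower in *nac25* than in *nac1L*. AGP1 had a direct log2 fold of -0.88 (q = 0.000866), AGP15 of -0.84 (q = 0.000463) and AGP9 of -0.65 (q = 0.00876) in the authors' deposited table. AGP16, AGP20, AGP4 and AGP31 had direct folds of -0.38, -0.52, -0.21 and -0.42 (q = 0.0737, 0.125, 0.606 and 0.216) in the authors' deposited table and did not pass. AGP7 and AGP26 were lower in *nac25* by log2 -0.56 (q = 0.000463) and -0.46 (q = 0.0286) in the authors' deposited table. AGP10, called higher in both mutants against WT, was lower in *nac25* in the direct test (log2 -0.31, q = 0.038) in the authors' deposited table. FLA19 was the higher member in *nac25* (log2 0.55, q = 0.00519) in the authors' deposited table. The calls of AGP2, AGP9, AGP10 and AGP26 were lost after centring, and the other 7 were kept.

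**Figure D3:**
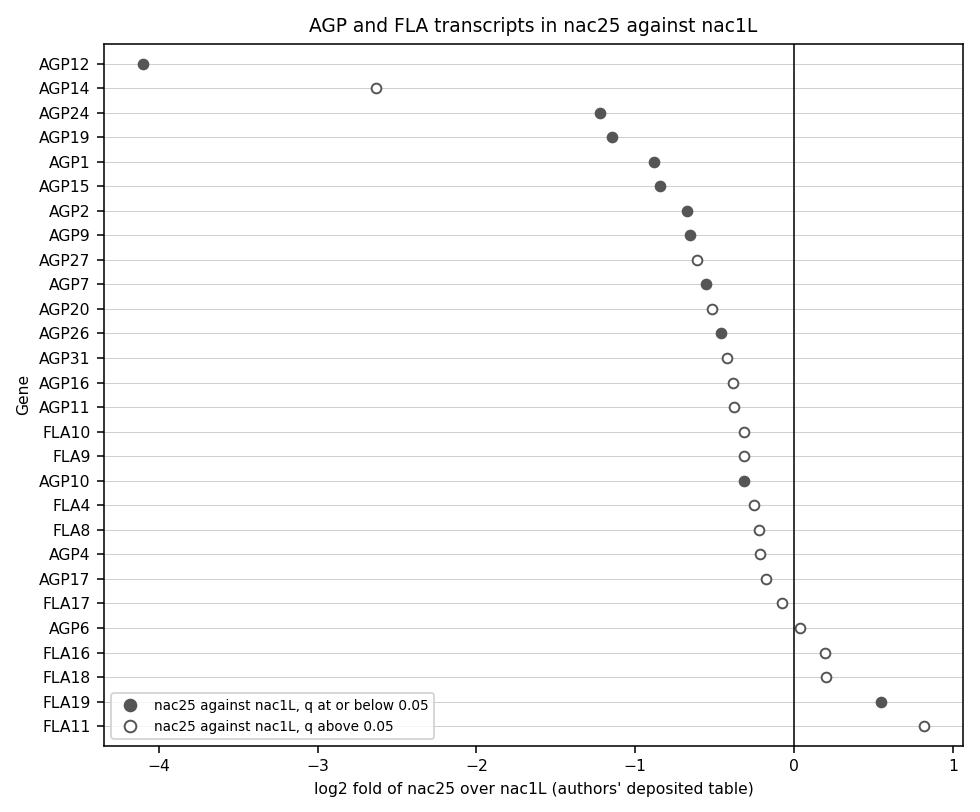
Log2 fold of *nac25* over *nac1L* for each of the 28 tested AGP and FLA genes, ordered by fold and filled where q is at or below 0.05. The 10 filled points left of 0 are all AGP genes, from AGP12 at -4.10 to AGP10 at -0.31, and FLA19 at 0.55 is the filled point right of 0.

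Genes that modify and anchor these proteins were examined from lists given by locus, beside the shares over all genes above. Prolyl 4-hydroxylases make the hydroxyproline to which the sugars are attached. Of 9 tested, 5 (55.6%) were called lower in *nac25*, and 2 (22.2%) lower and 1 (11.1%) higher in *nac1L*, none by 2-fold. Over all tested genes, 32.8% were called lower in *nac25*, and 18.9% lower and 9.62% higher in *nac1L*. P4H12 (log2 -0.72), P4H7 (-0.69), P4H10 (-0.67) and P4H5 (-0.45) were lower in *nac25* in the authors' deposited table. In *nac1L* P4H7 (log2 -0.52) and P4H12 (-0.50) were lower and P4H9 (0.43) was higher in the authors' deposited table. Centring left 0 of the hydroxylase genes lower and 2 higher in *nac25*, and 1 lower and 1 higher in *nac1L*. The *nac25* calls thus depended on the scaling, except that for P4H7 the reason cannot be told. Its p in the authors' Cuffdiff comparison was at the floor of 5e-05 in *nac25*, where centring overstates the error.

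The enzymes that add the first galactose to hydroxyproline were all tested, 8 in number. In *nac25* 4 (50%) were called lower and 1 (12.5%) higher, against 32.8% and 6.25% of all tested genes. In *nac1L* 2 (25%) were called lower, against 18.9% of all tested genes. GALT5 had log2 folds of -1.11 in *nac25* and -0.80 in *nac1L*, and GALT4 of -1.08 and -0.90, all called lower in the authors' deposited table. HPGT1 (log2 -1.06) and HPGT2 (-0.65) were called lower in *nac25*, and GALT6 (0.35), which lies outside the rule for named genes and was chosen after its value was seen, higher, in the authors' deposited table. After centring 2 were lower and 2 higher in *nac25*, and 2 lower and 1 higher in *nac1L*. The lowest folds of the modifying genes came after this step. Of 10 tested genes that extend or cap the glycan, 6 (60%) were lower in *nac25* and 4 (40%) in *nac1L*. Over all tested genes, 32.8% and 18.9% were called lower. None of the 10 was higher in either mutant. After centring 5 were lower in *nac25* and 3 in *nac1L*, again with 0 higher. AGM1, which encodes a methyltransferase for glucuronic acid of the AGP glycan, was 13.4-fold lower in *nac25* (log2 -3.74) and 7.85-fold lower in *nac1L* (log2 -2.97), both at q = 0.000463 in the authors' deposited table. The galactosyltransferase gene GALT31A was 7.16-fold lower in *nac25* (log2 -2.84) and 3.64-fold lower in *nac1L* (log2 -1.86), also at q = 0.000463, and the direct comparison called it lower in *nac25* (log2 -0.98, q = 0.00754) in the authors' deposited table. The galactosyltransferase gene GALT29A had folds of -1.25 in *nac25* and -1.04 in *nac1L*, both called in the authors' deposited table. Among the glucuronosyltransferase genes, GLCAT14B had folds of -0.98 in *nac25* and -0.68 in *nac1L*, both called lower, and GLCAT14C had folds of -1.85 in *nac25*, called lower, and -1.03 in *nac1L* (q = 0.0672) in the authors' deposited table. GLCAT14A was the sixth lower gene in *nac25* (log2 -0.45), and GLCAT14D, GLCAT14E, KNS4 and RAY1 were tested without a call, in the authors' deposited table.

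The 5 genes listed here for GPI anchor assembly were all tested and gave no call in any of the 3 comparisons. In the authors' Cuffdiff comparisons, 0 had an unadjusted p below 0.05 for either mutant against WT and 1, lower, for *nac25* against *nac1L*. Over all tested genes, 32.8%, 18.9% and 11.7% were called lower in *nac25*, in *nac1L* and between the mutants. The list stands for these 5 genes only. Of the receptor-like kinases that act in a pathway with FLA4, FEI2 was called lower in *nac25* (log2 -0.44, q = 0.0413) and in *nac1L* (log2 -0.40, q = 0.0482) in the authors' deposited table, and FEI1 was not called. Both calls of FEI2 were lost after centring. Other hydroxyproline-rich wall proteins were mostly below the read minimum, with 2 of 9 extensin and proline-rich protein genes tested. The leucine-rich repeat extensin gene LRX2 was lower in both mutants (log2 -1.98 in *nac25* and -1.57 in *nac1L*) in the authors' deposited table. The other, the proline-rich protein gene PRP4, had positive folds of 0.96 in *nac25* (q = 0.0504) and 0.92 in *nac1L* (q = 0.0576) in the authors' deposited table, which did not pass, and centring made it a higher call in both. Xylogen and early nodulin-like genes, which encode chimeric AGPs, had 4 of 7 tested, with XYP1 called higher in *nac25* (log2 0.44) and in *nac1L* (log2 0.47) in the authors' deposited table. ENODL15 was lower in *nac25* than in WT (log2 -1.39) and than in *nac1L* (log2 -1.19, q = 0.0219) in the authors' deposited table. The second call was lost after centring, at q at or below 0.01 and with adjustment within the comparison. XYP2 had a fold read as minus infinity in *nac1L*, which implies a level of 0 there. It was called lower in *nac1L* (q = 0.000463) and had a fold of -5.41 in *nac25* that did not pass (q = 0.364), in the authors' deposited table.

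**Figure D4:**
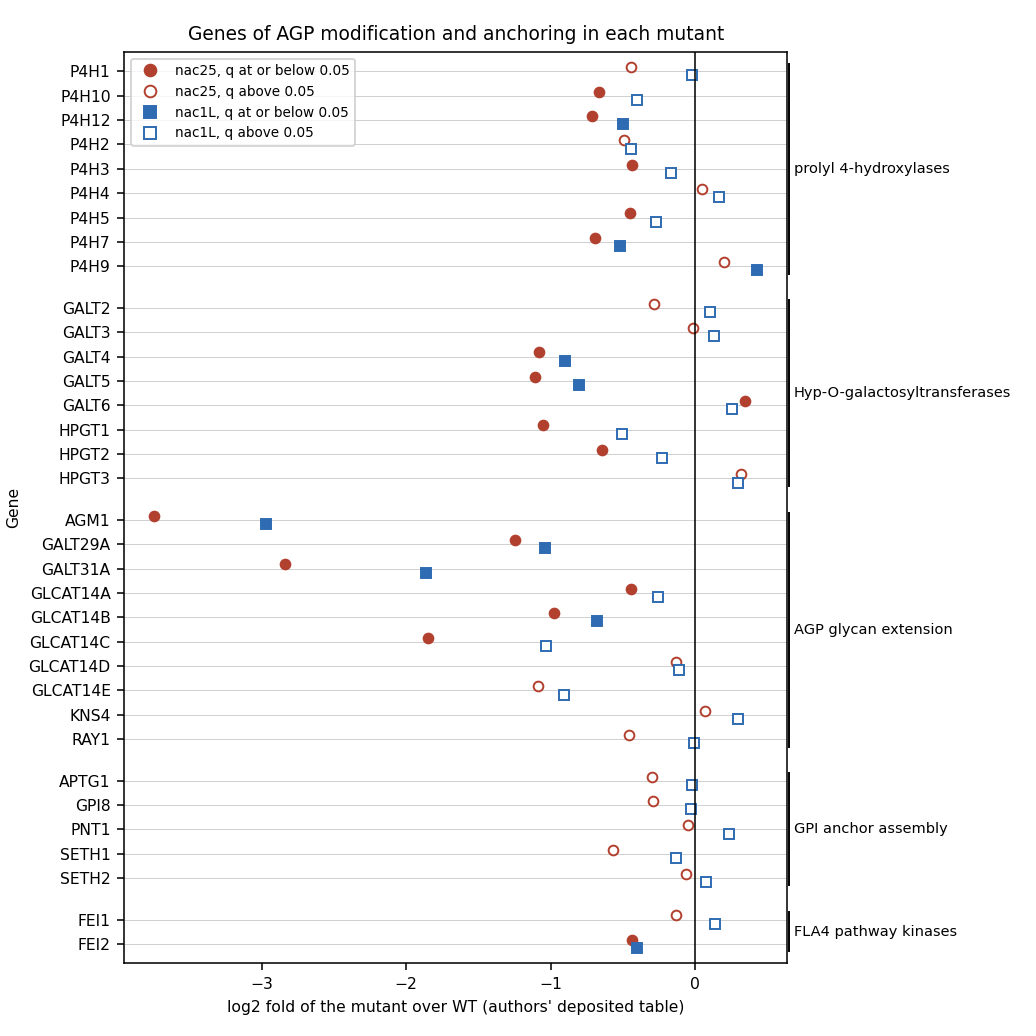
Log2 fold of *nac25* over WT (circles) and of *nac1L* over WT (squares) for tested genes of proline hydroxylation, glycan attachment and extension, GPI anchor assembly and the FLA4 pathway, filled where q is at or below 0.05. AGM1 (-3.74 in *nac25*, -2.97 in *nac1L*) and GALT31A (-2.84 in *nac25*, -1.86 in *nac1L*) have the lowest points, and the 5 listed GPI anchor genes are all open.

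In the TAIR10.1 annotation 10 members overlap another gene, in every case on the opposite strand, and no member has another member as its next gene in the table. Of the called members, AGP4, AGP10, AGP16, AGP19, AGP26 and FLA16 are concerned. Libraries were stranded per the labels, but the sources used here do not say whether counting used the strand, so reads of such pairs may not have been told apart. The partner of AGP16, AT2G46320, had folds of -0.35 in *nac25* (q = 0.135) and -0.15 in *nac1L* (q = 0.537) in the authors' deposited table, whereas AGP16 was called lower in both. The partner of FLA16, AT2G35859, had folds of 1.82 in *nac25* and 3.75 in *nac1L* with too few reads for a test in the authors' deposited table, opposite in sign to FLA16.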

How the data were processed

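RNA from whole seeds of 3 genotypes, 9 libraries in all, was sequenced from stranded libraries, per the labels' protocols. The submitters' processing notes name Cuffdiff 2.2.1.3, TopHat2 2.1.0 and FastQC 0.11.5. The sources used here give no genome build, annotation or normalization, so no coordinates or sequences are printed. The authors' deposited table holds log2 folds, p-values, q-values and a test status for 3 comparisons. The log2 fold was read as sample 2 over sample 1, per the file headers. A spreadsheet error stands in 3122 cells of that column and was taken as minus infinity, and another 2222 cells hold infinity. Benjamini-Hochberg adjustment of the p-values over all 54131 tests gives the deposited q-values within 5.27e-07. Depth per library is unknown.

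No test between genotypes was added. Implied 95% intervals take the fold divided by the normal quantile of its p-value as the standard error, and are too wide where p is at the table's floor of 5e-05. Centring subtracted the median of tested genes, recomputed p with that error and adjusted over the 3 comparisons. Where p is at that floor the error is too large, so centring can lose calls, among members and over all genes. The centring step was run on simulated data in which few genes changed, up or down at random around a common shift. In the real comparisons lower calls outnumber higher ones, so the simulation cannot show that the median is free of real change. The alternatives were q at or below 0.01, adjustment within each comparison, centring and a 2-fold minimum.

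Members, subclasses (from general knowledge) and the 11 lists of 72 genes were chosen with earlier results of these data known. All members are accounted for by name. From the other lists up to 4 called genes with the largest finite folds per comparison are named, and others were chosen after their values were seen. The design's provision for values per library did not apply. Identifiers were matched to the TAIR10.1 table of RefSeq, all 51 members among them. Python 3.11.15 was used with scipy 1.17.1, pandas 2.3.3, numpy 2.4.6 and, for plots, matplotlib 3.10.9.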

Additional observations from a re-analysis of the deposited data

Results flagged for a closer look

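The direct comparison of *nac25* with *nac1L* tests whether the changes of the mutants against WT differ, and 11 members passed it in the authors' deposited table. Lower in *nac25* than in *nac1L* were AGP12 (log2 -4.10), AGP24 (-1.22), AGP19 (-1.15), AGP1 (-0.88), AGP15 (-0.84), AGP2 (-0.67), AGP9 (-0.65), AGP7 (-0.56), AGP26 (-0.46) and AGP10 (-0.31) in the authors' deposited table. FLA19 was higher in *nac25* (log2 0.55) in the authors' deposited table. All tested genes together had a median of -0.20 in this comparison, and centring on it took the calls of AGP2, AGP9, AGP10 and AGP26.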

How the results depend on the processing

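No paired analysis was possible because the table holds no value per library, and for the same reason no replicate could be left out. For *nac25* against WT, the 15 lower calls came to between 11 and 16 under the alternatives, and the 2 higher calls to 1 at q at or below 0.01 and 0 with a 2-fold minimum. For *nac1L* against WT, the 11 calls came to 6 with a 2-fold minimum, the 10 lower calls to 6 and the 1 higher call to 0, while centring gave 2 higher. For *nac25* against *nac1L*, the 11 calls came to 7 after centring and 3 with a 2-fold minimum, the 10 lower calls to 6 and 3, and the 1 higher call to 0 with a 2-fold minimum. Fewer calls with a stricter rule follow from its construction, and the shift behind the centred counts is given above. Over all genes, centring left 14.8% lower in *nac25* against WT, 15.2% in *nac1L* against WT and 1.56% in *nac25* against *nac1L*. Adjustment within each comparison took the calls of AGP2, AGP10 and AGP26 between the mutants and added FLA7 in *nac25*. No member's call changed sign under these alternatives. Of 240 counts of the other lists under an alternative, 42 moved, that is by over 1.5 times or to or from 0. Depth and replicate spread cannot be seen in these values, and large folds with a high q, such as those of AGP13, are imprecise.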
